A study of Mus musculus with 47 samples.

Results

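The genes for heat shock proteins and chaperones described here are Hspa1a, Hspa1b, Hsph1, Dnaja4, Dnajb1, Hsp90aa1, Hspa8, Hspd1, Hspe1 and Hspb1, which are 10 of the 18193 genes with a probe set of their own on the array. They were taken by gene symbol: 25 of the 45101 probe sets on the array carry 1 of these symbols and no other, and 20 of those 25 passed the filter on low values. RNA was measured with Affymetrix 3′ expression arrays in crypts and villi of the small intestine of C57BL/6 mice, on 47 arrays in 12 groups. The genetic arm held wild type, Apc1638N/+ and p21-/- mice, all 3 months old and all fed the purified diet Ain76A, with 4 crypt and 4 villus arrays for each genotype. The diet arm held wild type mice fed Ain76A, NWD1 or NWD2 from weaning for 1 year, with 4 arrays a group except for 3 of NWD2 villi. Apc1638N is a germline truncating allele of the tumour suppressor Apc, and p21-/- mice lack the cell cycle inhibitor encoded by Cdkn1a in all tissues. NWD1 and NWD2 are Western-style diets whose composition the labels do not state, and Ain76A is the control diet. The labels number the replicates but do not say whether they came from separate mice, so p-values measure the spread between these samples, which may be technical.

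Heat shock proteins fold new and damaged proteins. Chaperones of the Hsp70 class bind exposed stretches of a client in a cycle that J-domain proteins start and nucleotide exchange factors end, those of the Hsp90 class hold clients such as kinases and steroid receptors, and the mitochondrial chaperonin encloses proteins in a chamber closed by its lid. Heat, oxidants and misfolded protein release the transcription factor HSF1, which binds arrays of GAA and TTC units in the promoters of these genes. In the intestinal epithelium inducible Hsp70 and small heat shock proteins are known to protect cells against injury, and crypts hold the dividing cells from which the absorptive cells of the villi arise.

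The promoters show what several of these genes share apart from their expression. RefSeq promoters of build GRCm38.p6, each running from 250 bases before to 50 bases after a start of transcription, were found for 8 of the 10 genes; Hsp90aa1 and Hspa8 had no entry. The 2 inducible Hsp70 genes are shown whole because they are copies of each other. Hspa1a lies at chr17:34969359-34972156 and Hspa1b at chr17:34956429-34959238, separated by 10120 bases, and their promoters at chr17:34972107-34972406 and chr17:34959189-34959488, both on the minus strand, were identical at 296 of 300 bases. Capitals mark a heat shock dyad, GAANNTTC or TTCNNGAA, which reads the same on both strands.
Hspa1a promoter: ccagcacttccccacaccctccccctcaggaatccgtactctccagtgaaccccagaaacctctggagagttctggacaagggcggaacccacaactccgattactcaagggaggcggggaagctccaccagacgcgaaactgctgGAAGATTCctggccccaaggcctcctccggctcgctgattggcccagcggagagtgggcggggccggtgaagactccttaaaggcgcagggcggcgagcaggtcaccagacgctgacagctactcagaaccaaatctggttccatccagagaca
Hspa1b promoter: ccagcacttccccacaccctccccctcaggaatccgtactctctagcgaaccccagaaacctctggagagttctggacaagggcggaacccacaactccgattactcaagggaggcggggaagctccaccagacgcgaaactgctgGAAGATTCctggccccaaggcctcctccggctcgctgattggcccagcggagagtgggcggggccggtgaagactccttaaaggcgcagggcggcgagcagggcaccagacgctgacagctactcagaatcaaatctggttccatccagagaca
Each of these promoters held 1 dyad, whose first base lay at -104 from the start.

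Hspd1 and Hspe1, which encode the mitochondrial chaperonin and its lid, lie head to head on chromosome 1 and overlap by 96 bases. Their promoters are shown as the stretch that holds the dyads, at chr1:55088047-55088088, because it is one piece of DNA read on opposite strands, on the minus strand for the second start of Hspd1 and on the plus strand for Hspe1.
Hspd1 promoter: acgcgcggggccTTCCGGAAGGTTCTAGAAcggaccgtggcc
Hspe1 promoter: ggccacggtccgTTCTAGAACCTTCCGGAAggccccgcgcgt
The capitals mark 3 overlapping dyads, a run of 18 bases of alternating GAA and TTC units. A run of at least 3 alternating units, each 2 bases from the next, was found in 3 of the 8 genes with a promoter entry, which were Hspd1, Hspe1 and Hsph1, and in 0.603% of all 32851 promoters of the table. A gene was counted if any of its starts held the run, whereas the share is per promoter, and Hspd1 and Hspe1 share 1 run.

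The same stretches are given for the other genes with a dyad, to show how they differ in the number of units and in their place. The stretches are chr5:149636287-149636381 on the minus strand for Hsph1, chr9:54699457-54699526 on the plus strand for the second start of Dnaja4, and chr5:135887790-135887841 on the plus strand for Hspb1.
Hsph1 promoter: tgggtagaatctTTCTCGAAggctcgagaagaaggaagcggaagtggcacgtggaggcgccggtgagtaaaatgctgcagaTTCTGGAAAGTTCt
Dnaja4 promoter: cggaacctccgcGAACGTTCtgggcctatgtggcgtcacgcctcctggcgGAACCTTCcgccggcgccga
Hspb1 promoter: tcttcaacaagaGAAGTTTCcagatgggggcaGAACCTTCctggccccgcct
A dyad of either kind was found in 7 of the 8 genes, all except Dnajb1, and in 15.1% of all promoters of the table, where GAANNTTC alone was in 7.86% and TTCNNGAA alone in 8.52%. Here too a gene was counted if any start held a dyad, and the first starts of Dnaja4 and Hspd1 held none. The shares are per promoter, and the copied Hsp70 promoters and the shared Hspd1 and Hspe1 stretch are not independent. TATAAA, which was in 13.6% of the table's promoters, was in none of these genes' windows. These are matches of letters in a window and do not show that a factor binds there.

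Across the series each array measured 14758 to 23296 of the 45101 probe sets, and the remaining cells of the deposited table are blank. Enterocyte markers were measured in both tissues (9 of 10 on every array), proliferation markers were higher in crypts (mean level of 4 markers 11.43 to 13.25 in crypts and 9.35 to 11.03 in villi), and no marker of fibroblasts and muscle, endothelium or erythrocytes could be tested in any comparison. Cdkn1a was blank at 1421679_a_at on every array of both p21-/- groups and measured on every other array, while 1424638_at read 11.24 to 13.39 in the p21-/- mice and 11.43 to 12.98 in wild type mice. For Apc, 1420956_at read 10.24 to 10.96 in Apc1638N/+ crypts and 10.04 to 10.91 in wild type crypts, which does not check the truncating allele. Each array was given a crypt-villus score, the mean level of crypt-high genes minus that of villus-high genes, leaving out the heat shock genes and taking the genes from the arm to which the array does not belong. By this score wild type crypt arrays 2 and 4 stood apart towards the villi (-0.06 and 0.12, against 1.06 and 2.05 for the other wild type crypts). They also stood apart in the log2 level of 3′ minus 5′ control probe sets, a sign of RNA quality. It was 1.40 and 0.96 for Gapdh on arrays 2 and 4, against 0.01 and 0.58 on arrays 1 and 3. For Actb it was 2.60 and 1.90 against 1.17 and 1.11. The part of RNA quality in their score was not tested. NWD1 villus arrays 1 and 2 (-0.48 and -0.52) and NWD2 villus array 1 (0.22) stood apart towards the crypts, against -2.68 to -2.07 in Ain76A villi.

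**Figure D1:**
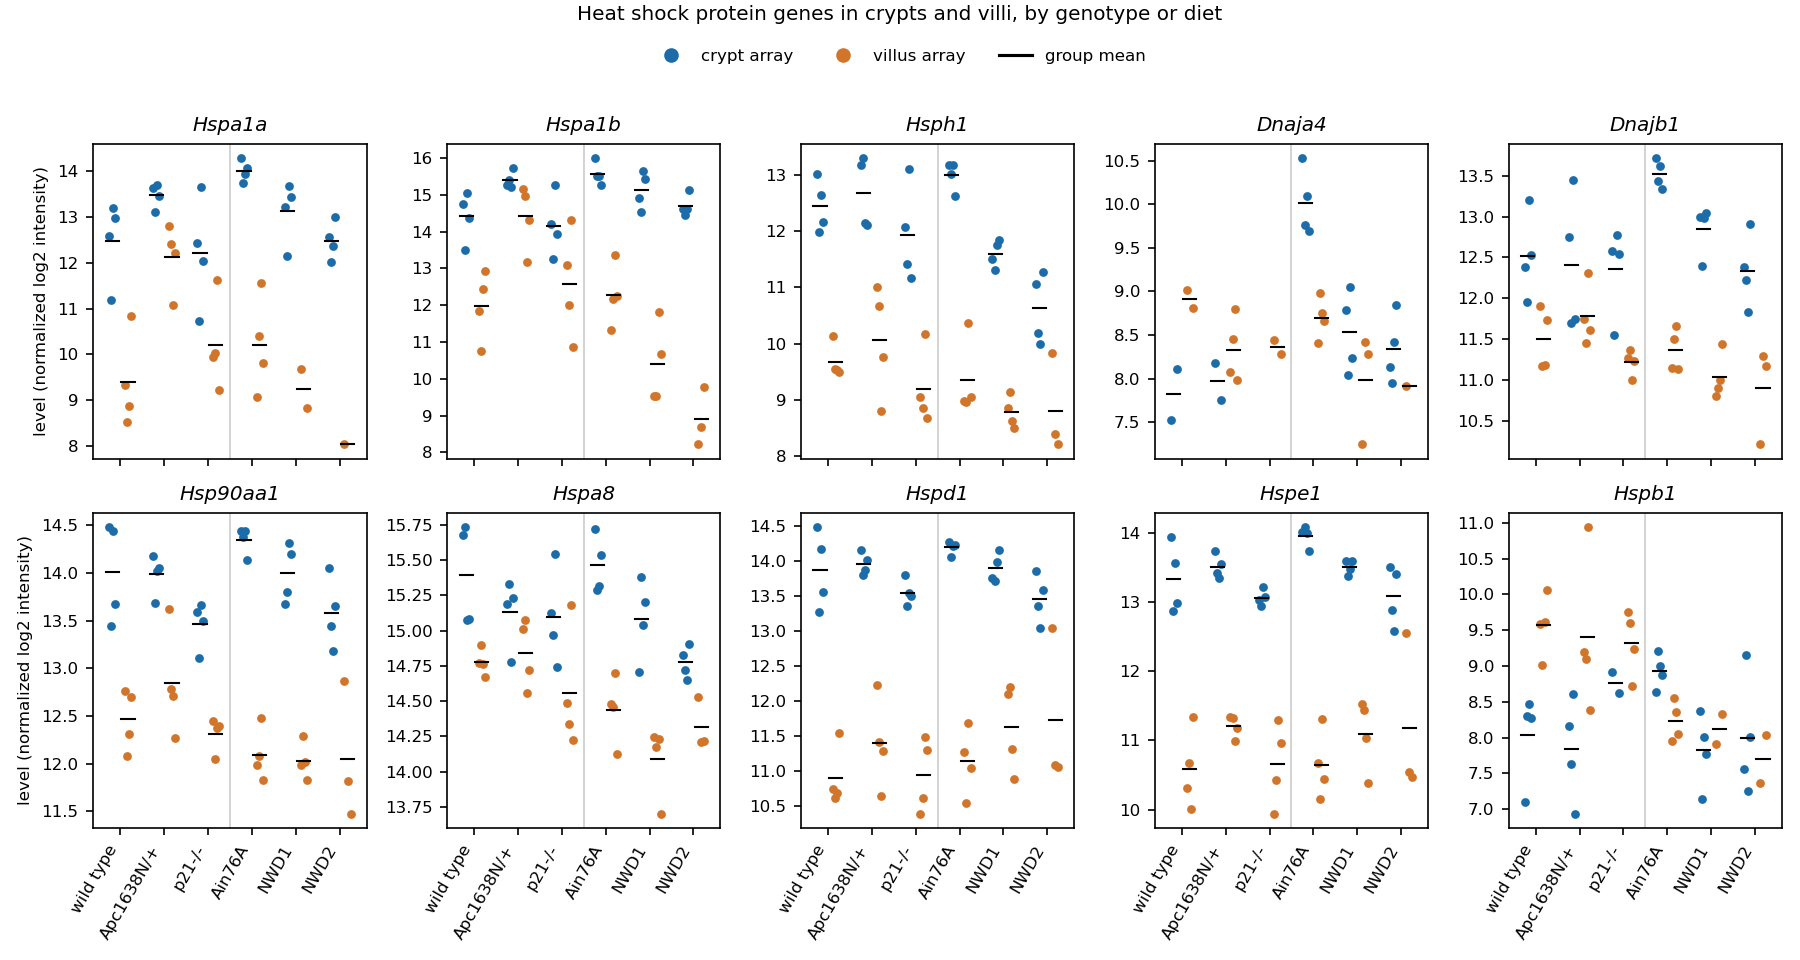
Level of each gene (normalized log2 intensity, y axis) on each array by genotype or diet (x axis), crypts in blue and villi in orange, with black bars for group means; a grey line separates the genetic arm (left) from the diet arm (right). Hspd1 reads 13.03 to 14.48 in crypts and 10.39 to 13.03 in villi, and blank cells are left out.

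Most of these genes were higher in crypts than in villi. Differences are given as log2 crypt minus villus ± the standard error from limma, a linear model fitted to 12 groups and all genes at once, with p-values adjusted by Benjamini-Hochberg over all genes tested in that comparison and a gene called below 0.05. In wild type mice 8 of the 9 genes that could be tested were higher in crypts and 1, Hspb1, was lower, where 21.9% of the 7013 genes tested were called higher and 26.5% lower (1845 higher and 1396 lower with the deposited scaling, against 1538 and 1859). The median of the 9 was 2.43 and the median of all genes -0.09. In such bulk samples, fewer cells of a type and less RNA per cell cannot be told apart. Signs of RNA quality also differed between tissues. The log2 level of the 3′ minus the 5′ control probe set for Actb was 0.70 to 1.06 in Ain76A crypts and 0.32 to 0.53 in Ain76A villi. With NWD1 it was 0.57 to 0.83 against 0.25 to 0.35. With NWD2 it was 0.477 to 0.798 against 0.264 to 0.4766, without overlap by a small margin. It overlapped in every genotype. In p21-/- mice crypts had 14758 to 17315 measured probe sets and villi 18731 to 20299. The part of these in the tissue differences was not tested. Levels of different probe sets are on different scales, so each gene is compared only with itself.

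Hspa1a and Hspa1b encode nearly identical heat-inducible Hsp70 chaperones, and a probe set named for one may also read the other, so the pair is best read together. Hspa1a (1452388_at) gave levels of 12.58, 11.19, 13.20 and 12.98 in wild type crypts and 9.33, 8.53, 8.88 and 10.85 in wild type villi. Hspa1a read 13.63, 13.10, 13.71 and 13.45 in Apc1638N/+ crypts and 12.81, 12.42, 11.09 and 12.22 in Apc1638N/+ villi. In p21-/- mice the Hspa1a levels were 12.43, 10.72, 13.66 and 12.04 in p21-/- crypts and 9.95, 10.04, 11.62 and 9.23 in p21-/- villi. The crypt and villus arrays did not overlap in wild type or Apc1638N/+ mice, and p21-/- crypt array 2 lay below p21-/- villus array 3. The differences were 3.09 ± 0.53 in wild type (adjusted p = 1.45e-05), 1.34 ± 0.53 in Apc1638N/+ (adjusted p = 0.04) and 2.004 ± 0.53 in p21-/- mice (adjusted p = 0.00237). The call in Apc1638N/+ mice was lost without crypt arrays 1, 3 or 4 or villus arrays 3 or 4, with adjusted p-values of 0.0578 to 0.154, and with blanks set to a low floor (adjusted p = 0.122).

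In the diet arm Hspa1a read 14.29, 13.75, 13.94 and 14.08 in Ain76A crypts and 9.07, 10.40, 11.55 and 9.81 in Ain76A villi. With NWD1 it read 13.23, 12.14, 13.67 and 13.45 in NWD1 crypts and 9.68 and 8.82 with the other arrays blank in NWD1 villi. With NWD2 it read 12.56, 12.02, 12.38 and 12.997 in NWD2 crypts and 8.04 with the other arrays blank in NWD2 villi. The crypt values of all 3 diets lay above every villus value of the same diet. The Ain76A difference was 3.81 ± 0.53 (adjusted p = 2.15e-07), a 14-fold difference, and the NWD1 and NWD2 differences were not tested because fewer than 3 villus arrays had a value.

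Hspa1b was measured on all 47 arrays. Its main probe set (1452318_a_at) read 14.75, 13.50, 15.05 and 14.36 in wild type crypts and 11.84, 10.76, 12.43 and 12.92 in wild type villi. Hspa1b read 15.26, 15.41, 15.20 and 15.72 in Apc1638N/+ crypts and 15.17, 14.97, 13.18 and 14.32 in Apc1638N/+ villi. In p21-/- mice it read 14.22, 13.25, 15.26 and 13.92 in p21-/- crypts and 13.08, 11.997, 14.31 and 10.87 in p21-/- villi. Wild type crypts were above wild type villi on every array, and so were Apc1638N/+ crypts by a small margin, while the p21-/- arrays overlapped. The Hspa1b differences were 2.43 ± 0.54 in wild type (adjusted p = 0.000323), 0.99 ± 0.54 in Apc1638N/+ (adjusted p = 0.135, not called) and 1.60 ± 0.54 in p21-/- mice (adjusted p = 0.0139). The p21-/- call was lost without crypt array 3 (adjusted p = 0.0773) or villus arrays 2 or 4 (adjusted p = 0.0505 and 0.121, at 1.03 without the latter), and when only the compared groups were fitted (adjusted p = 0.0615). With the deposited scaling Hspa1b passed in Apc1638N/+ mice, at 1.45 (adjusted p = 0.0298).

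Hspa1b read 16.000, 15.51, 15.51 and 15.26 in Ain76A crypts and 11.32, 12.17, 13.37 and 12.25 in Ain76A villi. With NWD1 its levels were 14.92, 14.53, 15.64 and 15.43 in NWD1 crypts and 9.52, 9.53, 11.83 and 10.68 in NWD1 villi. With NWD2 its levels were 14.60, 14.45, 14.62 and 15.13 in NWD2 crypts and 8.22, 8.70 and 9.78 in NWD2 villi. Every crypt level of the 3 diets was at least 14.45, and those of the villi spanned 8.22 with NWD2 to 13.37 with Ain76A. The crypt minus villus difference was 3.29 ± 0.54 with Ain76A, 4.74 ± 0.54 with NWD1 and 5.80 ± 0.58 with NWD2, the last a 55.9-fold difference (adjusted p = 2.26e-06, 2.81e-08 and 6.54e-09). By group means Hspa1b ran from 15.57 ± 0.31 (SD, n = 4) in Ain76A crypts to 8.90 ± 0.80 (SD, n = 3) in NWD2 villi. In that order, neighbouring groups lay within the larger of their SDs except at 3 steps: p21-/- crypts (14.16) above p21-/- villi (12.56), wild type villi (11.99) above NWD1 villi (10.39), and NWD1 above NWD2 villi. Apc1638N/+ villi, at 14.41 ± 0.90 (SD, n = 4), stood among the crypt groups.

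Hsph1, Dnajb1 and Dnaja4 are partners of the Hsp70 chaperones: Hsph1 encodes a nucleotide exchange factor of the Hsp110 class, and Dnajb1 and Dnaja4 encode J-domain proteins that bring clients and start the cycle. Hsph1 (1425993_a_at) read 13.02, 11.98, 12.64 and 12.15 in wild type crypts and 10.13, 9.56, 9.53 and 9.50 in wild type villi. In Apc1638N/+ mice Hsph1 read 13.18, 13.29, 12.15 and 12.10 in Apc1638N/+ crypts and 11.01, 10.67, 8.81 and 9.75 in Apc1638N/+ villi. Hsph1 levels of p21-/- mice were 12.07, 11.41, 13.10 and 11.16 in p21-/- crypts and 9.05, 8.86, 10.18 and 8.69 in p21-/- villi. No crypt array overlapped a villus array within any of these genotypes. The Hsph1 differences were 2.77 ± 0.42 in wild type, 2.62 ± 0.42 in Apc1638N/+ and 2.74 ± 0.42 in p21-/- mice (adjusted p = 1.25e-06, 4.01e-06 and 1.5e-06). Hsph1 read 13.17, 13.02, 13.17 and 12.61 in Ain76A crypts and 8.99, 8.96, 10.37 and 9.06 in Ain76A villi. With NWD1 the Hsph1 levels were 11.50, 11.30, 11.75 and 11.83 in NWD1 crypts and 8.86, 9.14, 8.62 and 8.50 in NWD1 villi. With NWD2 the Hsph1 levels were 11.07, 10.19, 9.99 and 11.26 in NWD2 crypts and 9.83, 8.39 and 8.21 in NWD2 villi. The Ain76A crypts were the highest of the diet arm and the NWD2 crypts the lowest. The difference was 3.65 ± 0.42 with Ain76A, 2.81 ± 0.42 with NWD1 and 1.81 ± 0.45 with NWD2 (adjusted p = 2.47e-09, 1.46e-06 and 0.00526), and the last was lost without NWD2 villus arrays 2 or 3 (adjusted p = 0.063 and 0.0801).

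Dnajb1 (1416756_at) read 12.38, 11.95, 13.20 and 12.54 in wild type crypts and 11.91, 11.17, 11.18 and 11.73 in wild type villi. The Dnajb1 levels were 12.75, 11.70, 13.45 and 11.74 in Apc1638N/+ crypts and 11.74, 11.45, 12.31 and 11.62 in Apc1638N/+ villi. Dnajb1 levels of p21-/- mice were 12.58, 11.55, 12.78 and 12.55 in p21-/- crypts and 11.27, 11.37, 10.996 and 11.23 in p21-/- villi. The tissues overlapped only in Apc1638N/+ mice, where the difference of 0.63 ± 0.30 was not called (adjusted p = 0.0862) but passed without crypt arrays 2 or 4 or villus array 3 (adjusted p = 0.0259 to 0.0403). It was 1.02 ± 0.30 in wild type (adjusted p = 0.00531) and 1.15 ± 0.30 in p21-/- mice (adjusted p = 0.00198). Dnajb1 read 13.72, 13.44, 13.61 and 13.34 in Ain76A crypts and 11.15, 11.50, 11.67 and 11.14 in Ain76A villi. With NWD1 Dnajb1 read 12.996, 12.39, 12.98 and 13.04 in NWD1 crypts and 10.80, 10.90, 11.003 and 11.44 in NWD1 villi. With NWD2 Dnajb1 read 12.38, 12.22, 11.84 and 12.91 in NWD2 crypts and 10.21, 11.30 and 11.18 in NWD2 villi. Within each diet every crypt array was above every villus array, by 2.16 ± 0.30 with Ain76A, 1.81 ± 0.30 with NWD1 and 1.44 ± 0.33 with NWD2 (adjusted p = 1.28e-07, 8.53e-06 and 0.00271).

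Dnaja4 (1418591_at) had a value on 32 of 47 arrays and was blank on all p21-/- crypts. It read 7.53 and 8.11 with the other arrays blank in wild type crypts and 9.01 and 8.81 with the other arrays blank in wild type villi. In Apc1638N/+ mice Dnaja4 read 8.18 and 7.75 with the other arrays blank in Apc1638N/+ crypts and 8.08, 8.45, 8.80 and 7.98 in Apc1638N/+ villi, and 8.44 and 8.28 with the other arrays blank in p21-/- villi. None of the genetic arm's tissue differences could be tested for Dnaja4. In the diet arm Dnaja4 read 10.53, 9.76, 10.09 and 9.69 in Ain76A crypts and 8.41, 8.98, 8.75 and 8.66 in Ain76A villi. With NWD1 Dnaja4 read 8.79, 8.05, 9.05 and 8.24 in NWD1 crypts and 7.24, 8.42 and 8.28 with 1 array blank in NWD1 villi. With NWD2 Dnaja4 read 8.13, 7.94, 8.42 and 8.84 in NWD2 crypts and 7.91 with the other arrays blank in NWD2 villi. The Ain76A crypts, at 9.69 to 10.53, lay above every other array on which the gene was measured. The filter on low values asks for a level above the array median on at least 3 arrays. Dnaja4 may have met it through the Ain76A crypts alone, so its differences from these crypts are not independent support. Leaving out the filter changed none of its calls. The crypt minus villus difference was 1.32 ± 0.28 with Ain76A (adjusted p = 0.000235) and 0.55 ± 0.30 with NWD1 (adjusted p = 0.139, not called). The Ain76A call was lost with blanks set to a low floor (adjusted p = 0.055), and the NWD1 difference passed with the deposited scaling, at 0.85 (adjusted p = 0.0214).

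Hsp90aa1 encodes the stress-inducible cytosolic Hsp90 and Hspa8 the constitutive Hsp70. Hsp90aa1 (1438902_a_at) read 14.48, 13.45, 14.44 and 13.67 in wild type crypts and 12.77, 12.09, 12.31 and 12.70 in wild type villi. The Hsp90aa1 levels were 14.18, 13.69, 14.02 and 14.05 in Apc1638N/+ crypts and 13.62, 12.79, 12.71 and 12.28 in Apc1638N/+ villi. Hsp90aa1 levels of p21-/- mice were 13.60, 13.11, 13.67 and 13.50 in p21-/- crypts and 12.45, 12.05, 12.38 and 12.39 in p21-/- villi. Crypts and villi did not overlap in any genotype, with differences of 1.54 ± 0.25, 1.14 ± 0.25 and 1.15 ± 0.25 in that order (adjusted p = 4.75e-06, 0.000362 and 0.000279). Hsp90aa1 read 14.44, 14.38, 14.44 and 14.14 in Ain76A crypts and 11.99, 12.08, 12.48 and 11.83 in Ain76A villi. With NWD1 Hsp90aa1 read 13.67, 13.81, 14.32 and 14.20 in NWD1 crypts and 11.98, 12.30, 12.02 and 11.84 in NWD1 villi. With NWD2 Hsp90aa1 read 14.05, 13.44, 13.19 and 13.65 in NWD2 crypts and 12.87, 11.82 and 11.48 in NWD2 villi. NWD2 villus array 1, one of the villus arrays that the score places towards the crypts, was the highest villus array of the diet arm. The differences were 2.26 ± 0.25 with Ain76A, 1.97 ± 0.25 with NWD1 and 1.53 ± 0.27 with NWD2 (adjusted p = 1.63e-09, 1.99e-07 and 0.000289).

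Hspa8 was also higher in wild type crypts at its main probe set. Hspa8 (1455789_x_at) read 15.68, 15.73, 15.08 and 15.08 in wild type crypts and 14.77, 14.90, 14.76 and 14.67 in wild type villi. The Hspa8 levels were 15.19, 15.33, 14.78 and 15.23 in Apc1638N/+ crypts and 15.01, 15.07, 14.56 and 14.72 in Apc1638N/+ villi. Hspa8 levels of p21-/- mice were 15.13, 14.97, 15.55 and 14.74 in p21-/- crypts and 14.49, 14.34, 15.18 and 14.22 in p21-/- villi. The tissues overlapped in both mutants and not in wild type mice. The differences were 0.62 ± 0.19 in wild type (adjusted p = 0.00701), 0.29 ± 0.19 in Apc1638N/+ (adjusted p = 0.216, not called) and 0.54 ± 0.19 in p21-/- mice (adjusted p = 0.0186); the p21-/- call was lost without crypt array 3 or villus arrays 2 or 4 (adjusted p = 0.067 to 0.111) and when only the compared groups were fitted (adjusted p = 0.101). With the deposited scaling the Hspa8 difference was 0.75 in Apc1638N/+ mice, which passed (adjusted p = 0.00391), and 1.12 in p21-/- mice. Hspa8 read 15.72, 15.28, 15.31 and 15.53 in Ain76A crypts and 14.48, 14.46, 14.70 and 14.12 in Ain76A villi. With NWD1 Hspa8 read 14.71, 15.38, 15.04 and 15.20 in NWD1 crypts and 14.24, 14.17, 14.23 and 13.70 in NWD1 villi. With NWD2 Hspa8 read 14.83, 14.72, 14.65 and 14.91 in NWD2 crypts and 14.53, 14.21 and 14.22 in NWD2 villi. The diets gave no overlap between tissues, with differences of 1.02 ± 0.19 with Ain76A, 0.99 ± 0.19 with NWD1 and 0.46 ± 0.21 with NWD2 (adjusted p = 1.7e-05, 5.43e-05 and 0.124, the last not called).

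The mitochondrial pair was higher in crypts in all 6 conditions. Hspd1 (1426351_at) read 14.48, 13.27, 14.17 and 13.56 in wild type crypts and 10.73, 10.60, 10.68 and 11.54 in wild type villi. The Hspd1 levels were 14.15, 13.79, 13.87 and 14.01 in Apc1638N/+ crypts and 12.23, 11.41, 10.64 and 11.29 in Apc1638N/+ villi. Hspd1 levels of p21-/- mice were 13.79, 13.35, 13.54 and 13.49 in p21-/- crypts and 10.39, 10.60, 11.48 and 11.29 in p21-/- villi. Every crypt value of the genetic arm lay above every villus value. Hspd1 read 14.27, 14.06, 14.21 and 14.22 in Ain76A crypts and 11.27, 10.54, 11.69 and 11.04 in Ain76A villi. With NWD1 Hspd1 read 13.76, 13.71, 13.98 and 14.15 in NWD1 crypts and 12.10, 12.20, 11.31 and 10.88 in NWD1 villi. With NWD2 Hspd1 read 13.85, 13.36, 13.03 and 13.58 in NWD2 crypts and 13.03, 11.08 and 11.05 in NWD2 villi. NWD2 villus array 1 reached the level of NWD2 crypt array 3, and it was the only villus array to reach any crypt array. The Hspd1 differences ran from 1.73 ± 0.36 with NWD2 (adjusted p = 0.00149) to 3.06 ± 0.34 with Ain76A (adjusted p = 1.36e-09).

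Hspe1 (1450668_s_at) was likewise higher in crypts in every condition. Hspe1 read 13.95, 12.87, 13.57 and 12.98 in wild type crypts and 10.32, 10.67, 10.01 and 11.34 in wild type villi. The Hspe1 levels were 13.74, 13.43, 13.34 and 13.55 in Apc1638N/+ crypts and 11.33, 11.33, 10.99 and 11.18 in Apc1638N/+ villi. Hspe1 levels of p21-/- mice were 13.04, 12.94, 13.22 and 13.07 in p21-/- crypts and 9.94, 10.42, 11.29 and 10.97 in p21-/- villi. The lowest crypt array of the genetic arm, at 12.87, was above the highest villus array, at 11.34. Hspe1 read 14.02, 14.08, 14.002 and 13.74 in Ain76A crypts and 10.67, 10.15, 11.32 and 10.44 in Ain76A villi. With NWD1 Hspe1 read 13.59, 13.38, 13.48 and 13.60 in NWD1 crypts and 11.53, 11.44, 11.04 and 10.38 in NWD1 villi. With NWD2 Hspe1 read 13.52, 12.88, 12.59 and 13.40 in NWD2 crypts and 12.56, 10.54 and 10.47 in NWD2 villi. As for Hspd1, NWD2 villus array 1 was far above the remaining NWD2 villi. The Hspe1 differences ran from 1.91 ± 0.35 with NWD2 (adjusted p = 0.000427) to 3.32 ± 0.33 with Ain76A (adjusted p = 1.41e-10).

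Hspb1, which encodes a small heat shock protein that holds unfolding clients and binds the actin skeleton, was the exception. Hspb1 (1422943_a_at) read 7.09, 8.30, 8.47 and 8.28 in wild type crypts and 9.59, 9.02, 9.61 and 10.06 in wild type villi. The Hspb1 levels were 8.16, 7.63, 8.61 and 6.94 in Apc1638N/+ crypts and 9.20, 9.09, 10.94 and 8.38 in Apc1638N/+ villi. Hspb1 levels of p21-/- mice were 8.91 and 8.62 with the other arrays blank in p21-/- crypts and 9.75, 9.60, 8.72 and 9.24 in p21-/- villi. Villi were higher than crypts in wild type mice with no overlap and in Apc1638N/+ mice with overlap, by differences of -1.53 ± 0.41 (adjusted p = 0.0024) and -1.57 ± 0.41 (adjusted p = 0.00228). Hspb1 read 8.64, 9.22, 8.99 and 8.88 in Ain76A crypts and 7.95, 8.55, 8.35 and 8.06 in Ain76A villi. With NWD1 Hspb1 read 8.38, 7.14, 8.01 and 7.77 in NWD1 crypts and 7.91 and 8.33 with the other arrays blank in NWD1 villi. With NWD2 Hspb1 read 7.55, 9.15, 7.25 and 8.01 in NWD2 crypts and 7.37 and 8.04 with 1 array blank in NWD2 villi. In Ain76A mice of the diet arm the crypts were the higher tissue, by 0.70 ± 0.41 with no overlap, which was not called (adjusted p = 0.14). It passed with the replicate number as a block (adjusted p = 0.0287), although the labels do not state that same-numbered arrays are paired. It also passed with the deposited scaling (0.996, adjusted p = 0.0354) and when only the compared groups were fitted (adjusted p = 0.00708). In p21-/-, NWD1 and NWD2 mice Hspb1 was blank on too many arrays to be tested.

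**Figure D2:**
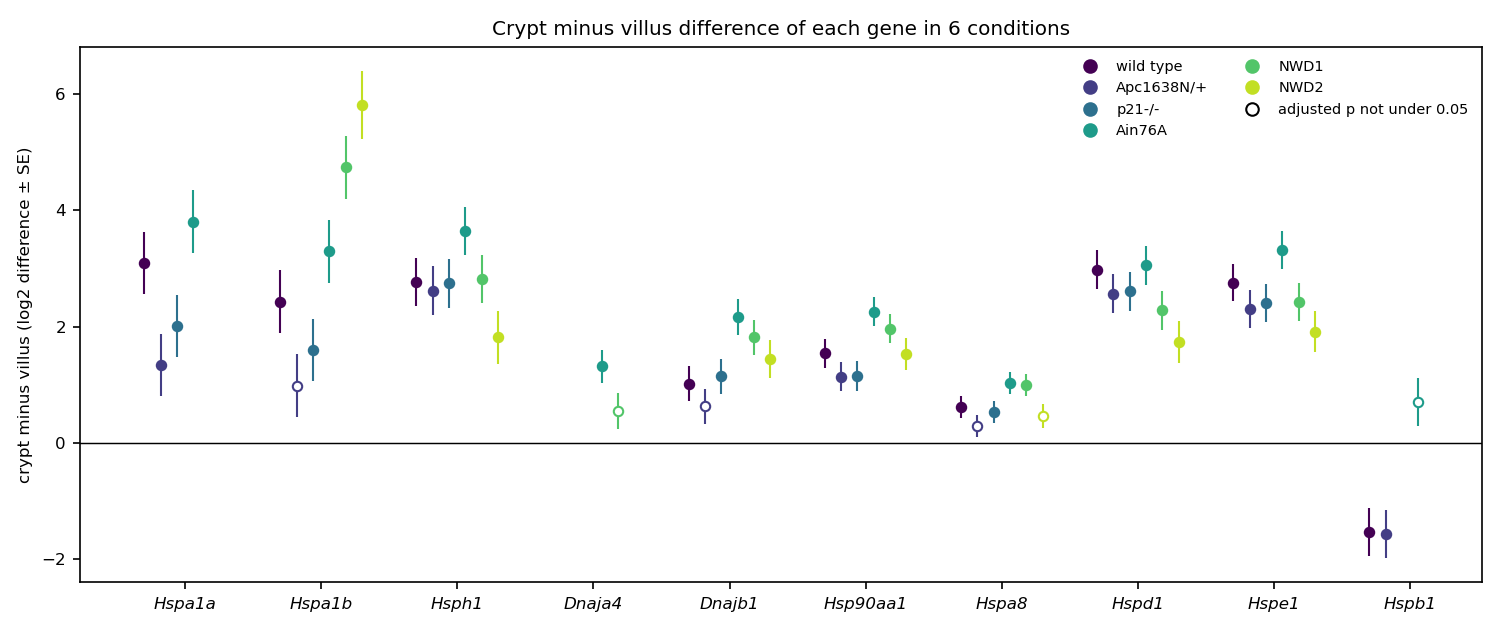
Crypt minus villus log2 difference (y axis, with its standard error as bars) of each gene (x axis) in the 6 conditions (colours); open points have an adjusted p of 0.05 or more, and genes not tested in a condition are left out. Hspa1b runs from 0.99 in Apc1638N/+ to 5.80 in NWD2 mice, and Hspb1 is the only tested gene below 0.

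Counted by condition, 5 of 9 genes were higher in crypts and 1 lower in Apc1638N/+ mice, where 22.2% and 22.1% of all genes were called in those directions. In p21-/- mice 8 of 8 were higher (24.1% of all genes), with Ain76A 9 of 10 (29.1%), with NWD1 7 of 8 (24.6%) and with NWD2 6 of 7 (9.08%). Leaving out wild type crypt arrays 2 and 4, or NWD1 villus arrays 1 and 2 and NWD2 villus array 1, changed no crypt against villus call of the wild type, NWD1 or NWD2 mice. Only Hspa1b, Hsph1, Dnajb1, Hsp90aa1, Hspa8 and Hspe1 had further probe sets that passed the filter, so Hspb1, the exception, had none. Counting each of these probe sets once per condition, all 55 differences that could be tested were above 0. Of these, 7 were not called, 4 of them in Apc1638N/+ mice.

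Among other chaperone genes the share higher in wild type crypts differed by list, where 21.9% of all genes were called higher and 26.5% lower. Of the chaperonin TRiC and its helper prefoldin, which fold actin and tubulin, 9 of 14 genes were higher in wild type crypts and none lower, with Cct3 at 1.71 ± 0.27 and Cct8 at 1.66 ± 0.27. Of the endoplasmic reticulum chaperones 9 of 15 were higher and none lower, with Hsp90b1 at 1.71 ± 0.22 and Hspa5, which encodes the Hsp70 of that compartment, at 1.61 ± 0.28. Of the cytosolic partners of Hsp70 and Hsp90 7 of 22 were higher and 1 lower, led by the co-chaperone Fkbp4 at 1.49 ± 0.30. Of the mitochondrial chaperones and proteases 4 of 12 were higher and 1 lower, led by Hspa9, the mitochondrial Hsp70, at 1.68 ± 0.26. Among other heat-inducible genes 3 of 4 tested were higher, Dnajb4 (1.08 ± 0.35), Chordc1 (1.07 ± 0.22) and Bag3 (1.01 ± 0.26). The immediate early genes, which respond to signals and to tissue handling, had 4 of 15 higher and 1 lower, led by Fosb at 1.53 ± 0.51. The shares of the partners, of mitochondria and of the immediate early genes were near that of all genes. Medians were 0.94 for TRiC and prefoldin, 0.70 for the endoplasmic reticulum, 0.17 for the partners, 0.30 for mitochondria, 1.04 for the heat-inducible genes and 0.27 for the immediate early genes, against -0.09 for all genes.

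In villi of Apc1638N/+ mice the inducible Hsp70 pair was high. Hspa1a read 12.81, 12.42, 11.09 and 12.22 in Apc1638N/+ villi against 9.33, 8.53, 8.88 and 10.85 in wild type villi, with no overlap. Hspa1b read 15.17, 14.97, 13.18 and 14.32 against 11.84, 10.76, 12.43 and 12.92, again with no overlap. These were 2 of the 9 heat shock genes tested, where 0.853% of all genes had every Apc1638N/+ villus above every wild type villus. Hspa1a rose by 2.74 ± 0.53 (adjusted p = 0.0385), a 6.67-fold difference, and was 1 of only 2 genes called higher among 7152 (0.028%). Hspa1b differed by 2.42 ± 0.54 and was not called (adjusted p = 0.0993). The remaining Hspa1b probe sets gave 2.58 ± 0.58 at 1427126_at and 2.36 ± 0.55 at 1427127_x_at, not called either (adjusted p = 0.15 and 0.186 over all probe sets).

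The Hspa1a call was close to the threshold. It was lost without wild type villus arrays 1, 2 or 3 or Apc1638N/+ villus arrays 1, 2 or 4, with differences of 2.45 to 2.72 and adjusted p-values of 0.111 to 0.358, and without Apc1638N/+ villus array 3 both Hspa1a (3.09, adjusted p = 0.0119) and Hspa1b (2.83, adjusted p = 0.0191) passed. With the deposited scaling, after adjustment for the score, with blanks set to a low floor, with every probe set in the fit or with only the compared groups in the fit, the adjusted p was 0.0567, 0.0612, 0.177, 0.0721 and 0.888. The other genes differed by -0.17 (Hspb1) to 0.62 (Hspe1) and none passed. The score was -2.54 to -1.75 in Apc1638N/+ villi and -2.77 to -1.92 in wild type villi (exact permutation test of the means, two-sided, p = 0.257). None of the 15 immediate early genes tested was called there, and their median was 0.03. In Apc1638N/+ crypts no gene of 7142 was called (0%; 890 had an unadjusted p under 0.05), and Hspa1a and Hspa1b differed by 0.99 ± 0.53 and 0.98 ± 0.54 (adjusted p = 0.439 and 0.445). The villus effect minus the crypt effect was 1.75 ± 0.76 for Hspa1a (adjusted p = 0.794), and no gene was called in that test (0% of 6590; 380 had an unadjusted p under 0.05), so the effect was not shown to differ between the tissues.

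**Figure D3:**
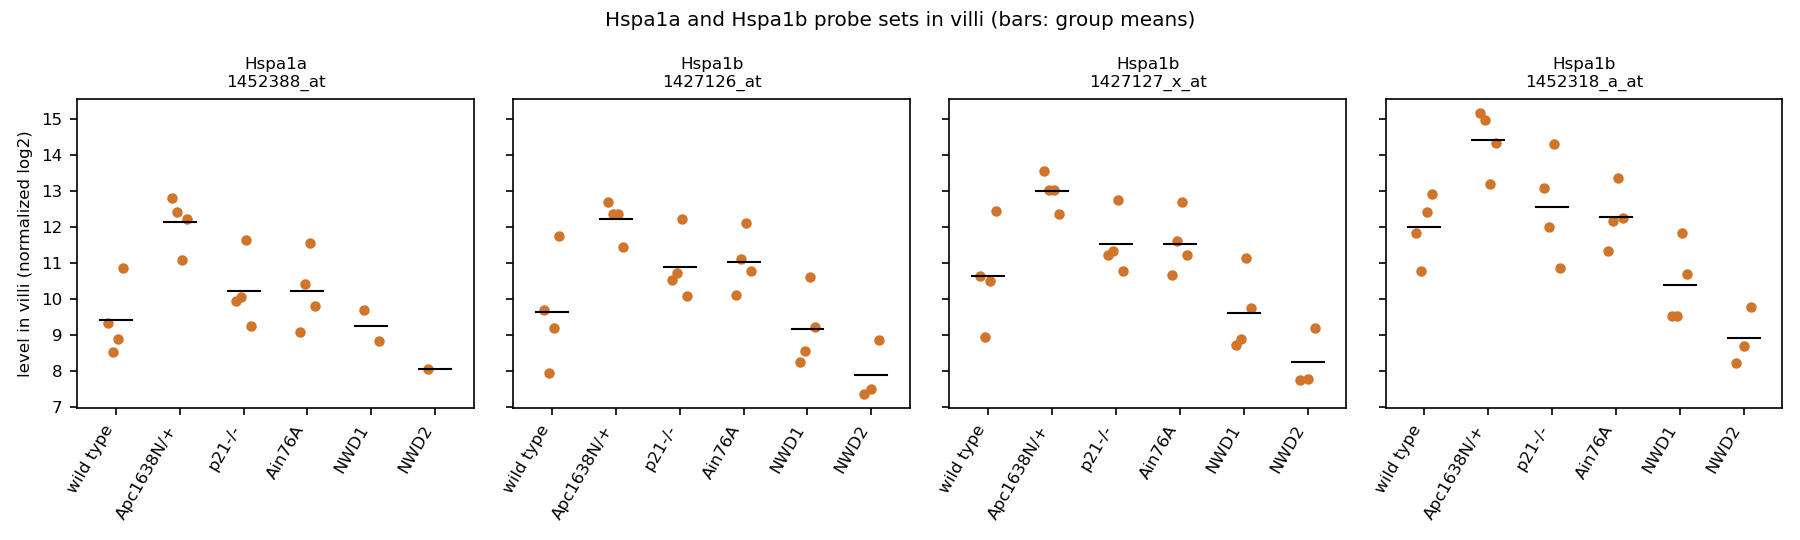
Level in villi (normalized log2, y axis) of the probe set for Hspa1a and of the 3 for Hspa1b on each array, by genotype or diet (x axis), with bars for group means. In all 4 panels the Apc1638N/+ villi have the highest mean and the NWD2 villi the lowest; Hspa1a has a value in only 2 NWD1 villi and 1 NWD2 villus.

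In p21-/- mice no heat shock gene was called in crypts, where 4.27% of all genes were called, or in villi, where 0.042% were. In crypts all 8 differences were below 0, from -0.54 to -0.15, with a median of -0.29 against 0.01 for all genes. The largest of these was Hsp90aa1 at -0.54 ± 0.25 (adjusted p = 0.216). It passed the threshold at -0.73 after adjustment for the score. Without wild type crypt arrays 2 and 4, which stood apart in score and in signs of RNA quality, it passed at -0.99. In villi the differences ran from -0.48 (Hsph1) to 0.81 (Hspa1a). The p21-/- crypts had fewer measured probe sets, 14758 to 17315 against 19034 to 22020 in wild type crypts (exact permutation test, two-sided, p = 0.0286, the smallest this design allows); the part this plays was not tested. The villus effect minus the crypt effect in p21-/- mice was called for none of the 8 genes (1.4% of all genes). The Apc1638N/+ and p21-/- comparisons share the wild type arrays.

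In the diet arm the crypts of mice fed NWD2 had lower levels of heat shock genes than those fed Ain76A. Of the 10 genes 5 fell, where 4.43% of the 7720 genes tested fell, and all 10 differences were below 0, with a median of -0.90 against -0.07 for all genes. With the deposited scaling, which moved the median of all genes by 0.12, 4 of the 10 fell, where 138 of the 7720 genes fell and 661 rose. For 9 of the 10, all except Hspb1, every NWD2 crypt lay below every Ain76A crypt, which was the case for 17.2% of all genes. Hsph1 read 11.07, 10.19, 9.99 and 11.26 in NWD2 crypts against 13.17, 13.02, 13.17 and 12.61 in Ain76A crypts. It fell by 2.37 ± 0.42 (adjusted p = 0.000561), a 5.16-fold difference. Dnaja4 read 8.13, 7.94, 8.42 and 8.84 against 10.53, 9.76, 10.09 and 9.69 and fell by 1.69 ± 0.28 (adjusted p = 0.000611). Both calls held without any single array of the compared groups and after adjustment for the score (-1.85 and -1.97, adjusted p = 0.0109 and 0.00259). The Dnaja4 call was lost when blanks were set to a low floor (adjusted p = 0.0708), and Dnaja4 may have passed the filter through the Ain76A crypts alone.

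Dnajb1, Hspa8 and Hsp90aa1 were also called lower at their main probe sets, and the size of the fall differed between probe sets of a gene. Dnajb1 read 12.38, 12.22, 11.84 and 12.91 against 13.72, 13.44, 13.61 and 13.34 and fell by 1.19 ± 0.30 (adjusted p = 0.00919). Hspa8 read 14.83, 14.72, 14.65 and 14.91 against 15.72, 15.28, 15.31 and 15.53 and fell by 0.69 ± 0.19 (adjusted p = 0.016). Hsp90aa1 read 14.05, 13.44, 13.19 and 13.65 against 14.44, 14.38, 14.44 and 14.14 and fell by 0.77 ± 0.25 (adjusted p = 0.0417). The remaining 5 were not called: Hspa1a at -1.53 ± 0.53 (adjusted p = 0.0574), Hspe1 at -0.87 ± 0.33 (0.0749), Hspb1 at -0.94 ± 0.41 (0.127), Hspd1 at -0.73 ± 0.34 (0.147) and Hspa1b at -0.87 ± 0.54 (0.298). Single arrays decided 3 of the 5 calls. Dnajb1 was lost without NWD2 crypt array 3 (adjusted p = 0.0779), Hspa8 without Ain76A crypt array 1 or NWD2 crypt arrays 2 or 3 (0.0518 to 0.0806), and Hsp90aa1 without Ain76A crypt arrays 1, 2 or 3 or NWD2 crypt arrays 2, 3 or 4 (0.0673 to 0.208). Hsp90aa1 was also lost with the deposited scaling (-0.69, adjusted p = 0.0692) and with blanks set to a low floor (adjusted p = 0.0526). When only the compared groups were fitted, Hspa1a, Hspa1b, Hspd1 and Hspe1 passed too (adjusted p = 0.00395 to 0.0109). Among the remaining probe sets Dnajb1 1416755_at (-1.31 ± 0.24), Hsph1 1423566_a_at (-2.26 ± 0.47), Hspa8 1431182_at (-1.67 ± 0.34), Hsp90aa1 1426645_at (-1.35 ± 0.35) and Hspe1 1422579_at (-1.10 ± 0.26) were also called, while Hspa8 1420622_a_at was not (-0.35 ± 0.25).

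The NWD2 crypts also differed from the Ain76A crypts in tissue markers. The mean level of 6 goblet cell markers was 12.05 to 13.33 in NWD2 crypts against 13.21 to 13.83 in Ain76A crypts. These markers were higher in Ain76A villi, at 14.12 to 14.92. The mean of 2 Paneth cell markers was 14.80 to 15.46 in NWD2 crypts against 15.55 to 16.05 in Ain76A crypts. Of the 9 enterocyte markers tested 8 rose (median 1.46) and of the 8 proliferation markers 5 fell (median -1.16), where 6.41% of all genes rose and 4.43% fell, and the crypt-villus score was 0.86 to 2.10 against 2.03 to 2.77 (exact permutation test, two-sided, p = 0.0857). After adjustment for the score 2 of the 10 heat shock genes were called, Hsph1 and Dnaja4, while Dnajb1 was at -1.19 (adjusted p = 0.0501), Hspa8 at -0.52 (adjusted p = 0.184) and Hsp90aa1 at -0.38 (adjusted p = 0.486). The share of all genes called after that adjustment is not given here. Immediate early genes were not called (0 of 17, median -0.09). Among other chaperones 3 of 14 TRiC and prefoldin genes fell, Cct3 (-0.89 ± 0.27), Cct7 (-0.72 ± 0.17) and Cct6a (-0.66 ± 0.21). Of the cytosolic partners 3 of 22 fell, namely Stip1, which joins Hsp70 and Hsp90 (-0.96 ± 0.30), Ahsa1, which activates Hsp90 (-0.85 ± 0.22), and Dnaja1 (-0.84 ± 0.21). Of the heat-inducible genes 2 of 4 fell, Chordc1 (-0.91 ± 0.22) and Bag3 (-0.85 ± 0.26). In the endoplasmic reticulum P4hb rose (0.94 ± 0.27) and Dnajc10 fell (-0.66 ± 0.22) among 16, and 0 of 13 mitochondrial chaperones and proteases were called.

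In NWD1 crypts no gene of 7761 was called (0%; 272 had an unadjusted p under 0.05). All 10 heat shock genes lay below Ain76A, with a median of -0.56 against -0.05 for all genes, and for 6 of the 10 (Hspa1a, Hsph1, Dnaja4, Dnajb1, Hspe1 and Hspb1) the arrays did not overlap, which held for 5.09% of all genes. Dnaja4 read 8.79, 8.05, 9.05 and 8.24 in NWD1 crypts, a difference of -1.49 ± 0.28 (adjusted p = 0.104). It passed the threshold after adjustment for the score (-1.57). Dnaja4 may have passed the filter through the Ain76A crypts alone, so neither its difference nor its place in these counts is independent support. Hsph1 read 11.50, 11.30, 11.75 and 11.83, a difference of -1.40 ± 0.42 (adjusted p = 1 in the fit of all groups), and it passed when only the compared groups were fitted. The score was 1.87 to 2.55 in NWD1 crypts (exact permutation test against Ain76A, two-sided, p = 0.229). The NWD1 and NWD2 comparisons share the Ain76A arrays, so that a high Ain76A group lowers both.

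**Figure D4:**
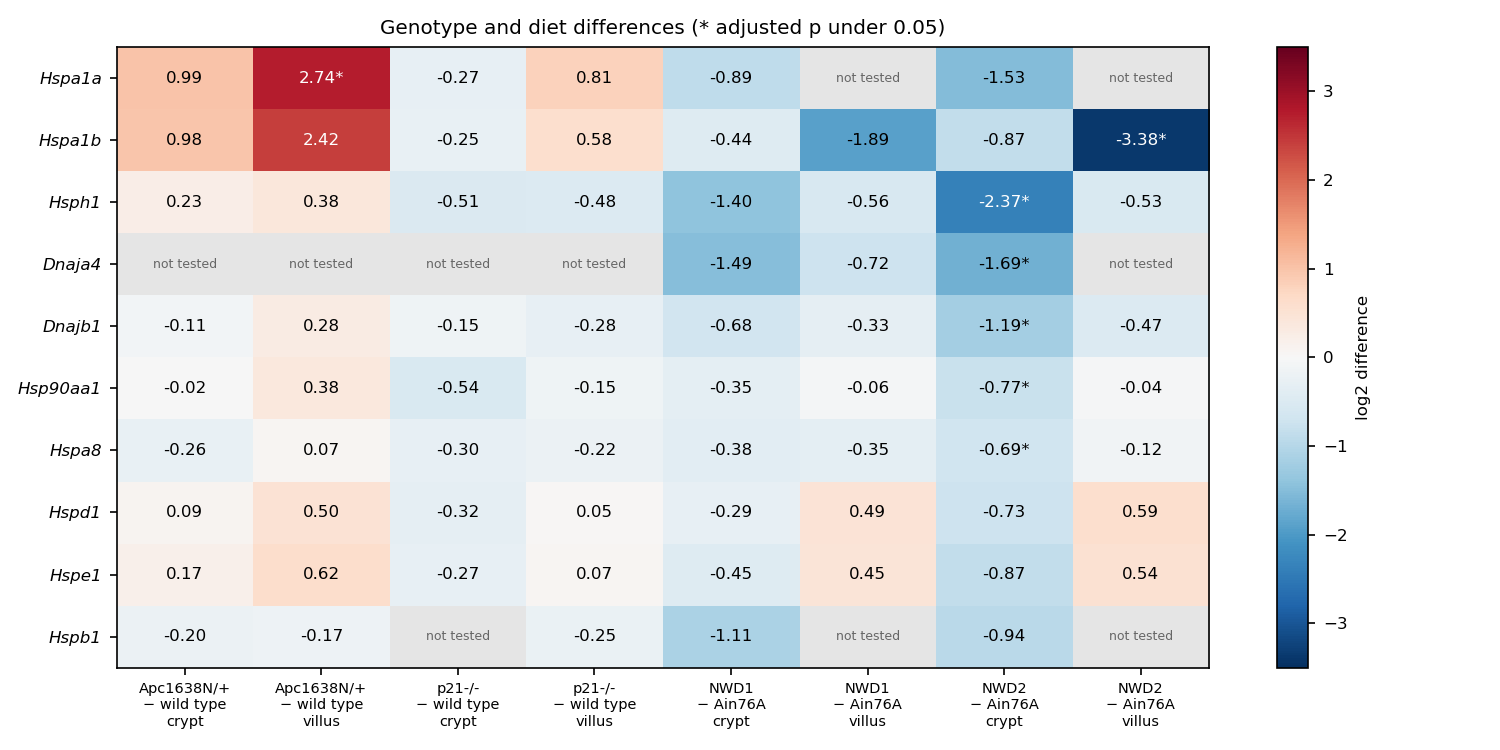
Log2 difference (colour and number) of each gene (rows) in each genotype and diet comparison (columns); an asterisk marks an adjusted p under 0.05 and grey cells were not tested. NWD2 crypts hold 5 of the 7 called cells, and all 10 genes are below 0 in both the NWD1 and the NWD2 crypts.

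In villi the diet difference was in Hspa1b alone among the 7 genes tested. Hspa1b read 8.22, 8.70 and 9.78 in NWD2 villi against 11.32, 12.17, 13.37 and 12.25 in Ain76A villi, with no overlap, as for 14.1% of all genes. It fell by 3.38 ± 0.58 (adjusted p = 0.00653), a 10.4-fold difference, where 0.321% of the 7477 genes tested fell. The 2 remaining Hspa1b probe sets gave -3.13 ± 0.62 and -3.31 ± 0.59 (adjusted p = 0.0161 and 0.0104 over all probe sets). The call held without any single array (adjusted p up to 0.041) and without NWD2 villus array 1, which the score places towards the crypts (-3.04, adjusted p = 0.0279). Hspa1a had a value on 1 of 3 NWD2 villi (8.04, against 9.07 to 11.55 in Ain76A villi) and was not tested. The other 6 genes differed by -0.53 (Hsph1) to 0.59 (Hspd1) and none passed.

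The NWD2 villi scored -1.49 to 0.22 against -2.68 to -2.07 in Ain76A villi (exact permutation test, two-sided, p = 0.0571). After adjustment for the score Hspa1b was at -3.32 (adjusted p = 0.0173). Immediate early genes were lower in NWD2 villi, at a mean level of 10.19 to 11.45 against 11.87 to 12.41, and 1 of 15, Dusp1, was called (-2.18 ± 0.43); the part of cell composition and of these genes in the Hspa1b result was not tested. In NWD1 villi Hspa1b read 9.52, 9.53, 11.83 and 10.68, a difference of -1.89 ± 0.54 that was not called (adjusted p = 0.371), and none of the 8 genes tested was called (0.0655% of all genes). The villus effect minus the crypt effect of NWD2 was -2.51 ± 0.80 for Hspa1b (adjusted p = 0.0846) and 1.83 ± 0.61 for Hsph1 (adjusted p = 0.0903), and none of the 7 genes was called (0.646% of all genes). Same-numbered crypts and villi of Ain76A and NWD2 mice met a correlation rule for pairing, which the labels do not state. Same-numbered arrays of different genotypes reached a correlation of 0.588, so the rule does not show pairing. With the replicate number as a block in every condition, 3 genes were called among 366 of 6948 genes. These were Hspa1b at -2.37 (adjusted p = 0.0292), Hsph1 at 2.05 (adjusted p = 0.0127) and Hspe1 at 1.51 (adjusted p = 0.0477). In the fit without the block Hspa1b passed with the deposited scaling (adjusted p = 0.0472), and Hspa1b and Hsph1 passed when only the compared groups were fitted (adjusted p = 0.0134 and 0.0412). For NWD1 no gene of 7376 was called in that test (0%; 202 had an unadjusted p under 0.05), and Hspa1b was at -1.45 ± 0.76 (adjusted p = 0.999).

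Wild type mice on Ain76A were present in both arms, at 3 months and at 1 year, where age and arm of the study cannot be told apart. In crypts Dnajb1 was higher at 1 year, at 13.72, 13.44, 13.61 and 13.34 against 12.38, 11.95, 13.20 and 12.54 with no overlap. It rose by 1.01 ± 0.30 (adjusted p = 0.0231), as 1 of 9 genes tested, where 7.62% of all genes rose (353 rose and 483 fell with the deposited scaling, against 582 and 466). Its probe set 1416755_at gave 0.95 ± 0.24 (adjusted p = 0.00705). Without wild type crypt arrays 2 and 4, which stood apart in score and in signs of RNA quality, Dnajb1 was at 0.74 (adjusted p = 0.389). For this comparison the score was taken from genes that differed between crypts and villi in both arms. These genes were chosen on the compared arrays themselves, so that score is not independent of them. After adjustment for it Dnajb1 was at 1.05 (adjusted p = 0.054). The call was also lost without wild type crypt array 2 alone (0.82, adjusted p = 0.144) or Ain76A crypt arrays 1 or 3 (0.0611 and 0.0572). Hspa1a was at 1.53 ± 0.53 (adjusted p = 0.0504, not called), and it passed without wild type crypt arrays 1 or 3, with every probe set in the fit (adjusted p = 0.0457) and when only the compared groups were fitted (adjusted p = 0.0413), where Hspa1b passed too (adjusted p = 0.0465). All 9 genes lay above 0, with a median of 0.62 against 0.06 for all genes. The remaining probe sets for Hsp90aa1 (1.28 ± 0.35 and 1.61 ± 0.47), Hsph1 (1.63 ± 0.47) and Hspa8 (1.06 ± 0.34 at 1431182_at) were called where the main ones were not, at 0.34, 0.55 and 0.07.

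In villi Hspb1 was lower at 1 year, at 7.95, 8.55, 8.35 and 8.06 against 9.59, 9.02, 9.61 and 10.06, with no overlap. It fell by 1.34 ± 0.41 (adjusted p = 0.0212), as 1 of 9 genes tested, where 9.78% of all genes fell (715 fell and 855 rose with the deposited scaling, against 696 and 524). The call was lost without wild type villus arrays 3 or 4 or Ain76A villus arrays 1 or 4 (differences of -1.33 to -1.18, adjusted p = 0.0533 to 0.0605) and with blanks set to a low floor (adjusted p = 0.118). The arms also differed in signs of RNA quality. The log2 level of the 3′ minus the 5′ control probe set for Actb was 0.70 to 1.06 in Ain76A crypts and 1.11 to 2.60 in wild type crypts, and 0.32 to 0.53 against 1.11 to 2.17 in villi (exact permutation tests, two-sided, p = 0.0286 each, the smallest this design allows). Gapdh differed in the same direction (exact permutation tests, two-sided, p = 0.0286 in each tissue). All 6 lymphocyte markers fell in the 1-year villi, with a median of -2.40, and 7 of 15 immediate early genes fell. The part of these in the Hspb1 and Dnajb1 results was not tested.

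The 10 genes did not vary together as 1 block. After the mean of each group was subtracted, the Pearson correlation between 2 genes over arrays ran from -0.494 (Hspa8 and Hspb1, 42 arrays) to 0.896 (Hspd1 and Hspe1, 47 arrays) over 45 pairs, with a median of 0.288 and 13 pairs above 0.5. These are descriptions over arrays that share a scaling and a tissue preparation. Hspd1, Hspe1, Hsp90aa1 and Hsph1 were related at 0.61 to 0.896 among themselves, and Hspa1a and Hspa1b at 0.824 (43 arrays). Dnajb1 went with Dnaja4 (0.546, 32 arrays) and Hspb1 (0.528, 42 arrays) in both tissues. Its correlation with Hsph1 was 0.329 in 24 crypts and -0.424 in 23 villi, opposite in sign, and 0.0034 over all 47 arrays.

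Hspd1 and Hspe1 varied with the crypt-villus score, which is built from the levels of other genes and is no count of cells. With group means removed, their correlation with the score, computed from genes that differed in both arms, was 0.888 and 0.848 over 47 arrays, against 0.66 for Hsp90aa1 and 0.536 for Hsph1. By tissue, Hspd1 was at 0.843 in crypts and 0.93 in villi and Hspe1 at 0.722 and 0.916. Hspa1b was at 0.274 in crypts and -0.0938 in villi, and Dnajb1 at 0.317 and -0.489. With the mean of the immediate early genes Dnajb1 was related at 0.559 in crypts and 0.755 in villi, and Hspa1b at 0.105 and -0.0471. Other genes also varied with that mean in villi, Hspa8 at -0.724, Hspe1 at -0.719, Hspd1 at -0.698, Hsph1 at -0.603 and Hspb1 at 0.527. In crypts these genes were at -0.092, 0.0696, 0.223, 0.00572 and 0.4 in that order. Of the 5048 genes measured on every array, those most like Hspa1a over 43 arrays were Hspa1b (0.824), Xpot (0.646), Hsph1 (0.629), Ddit4 (0.625) and Rnf213 (0.59). Those most like Hspd1 over 47 arrays were Hspe1 (0.896), Farsb (0.855), Pycard (0.853), Cps1 (0.848) and Cluh (0.84).

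**Figure D5:**
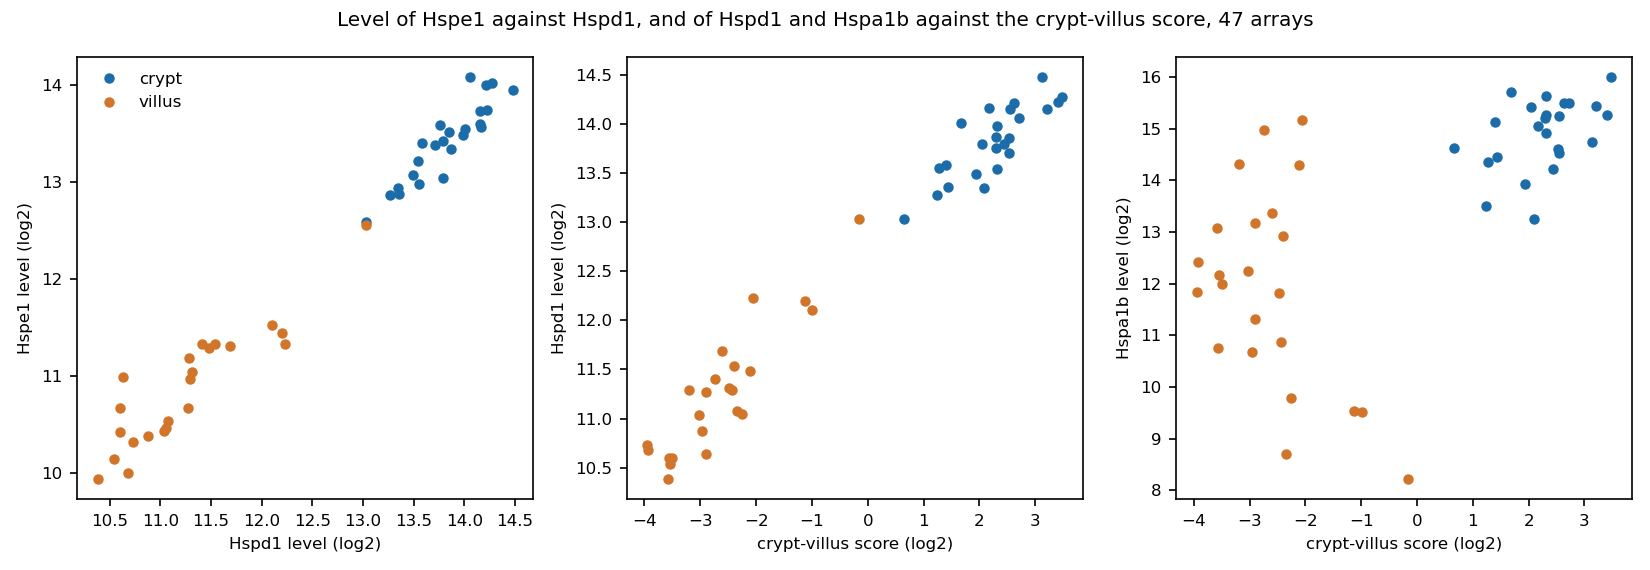
Level of Hspe1 against Hspd1 (left), and of Hspd1 (middle) and Hspa1b (right) against the crypt-villus score taken from genes that differed in both arms, all in log2 units with 1 point per array, crypts in blue and villi in orange. Hspd1 follows the score across and within tissues, while Hspa1b ranges from 8.22 to 15.17 among villi and is lowest, at 8.22, on the villus array whose score is nearest to the crypts.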

How the data were processed

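RNA of 47 crypt and villus samples was labelled with biotin and read on Affymetrix 3′ expression arrays, per the labels' protocols. The deposited values are log2 signals that the authors made with GCOS, per the submitters' processing notes, whose version and scaling are not given in the sources used here; 55.24% of cells are blank, which were kept as missing. The files carry no read counts, so precision rests on the number of arrays. Quantile normalization used the 8350 probe sets without a blank on any array, and the remaining probe sets were placed by interpolation. Probe sets above the array median on at least 3 arrays were kept (14919), and the probe set with the highest mean stood for each of 8217 genes. limma 3.58.1 in R 4.3.3 fitted 12 groups with a variance trend, with Benjamini-Hochberg adjustment within each comparison over genes measured on at least 3 arrays in every compared group. The fit was tested on simulated data. Exact permutation tests used scipy 1.17.1. Genes were named through the platform annotation, where 34945 probe sets have 1 symbol and 932 several. Named genes were the 10 members, other listed chaperone genes that passed the test (the leading ones in the tissue comparison), and the 5 genes most like Hspa1a and Hspd1. The members and gene lists were chosen with earlier results of these data known. Replicate numbers were taken to pair arrays where the deviations of every same-numbered pair correlated above 0.1. This held for crypts and villi of Ain76A (0.132 to 0.291, 4 pairs) and NWD2 mice (0.286 to 0.487, 3 pairs; NWD2 crypt array 4 has no partner). It did not hold in the other conditions (8 of 16 pairs above 0.1), between genotypes (9 of 16), between diets (6 of 15) or across age (2 of 8). Single pairs reached 0.588 between genotypes and 0.499 between diets, so meeting the rule does not show that arrays are paired. Other scalings, filters, blanks, fits and left-out arrays were tried.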

Additional observations from a re-analysis of the deposited data

Results flagged for a closer look

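In 6 of 101 groups of 4 arrays, 1 array stood apart from the others of its group for 1 gene, by a gap larger than Dixon's 95% critical value. Chance flags about 1 in 20 groups, so this number is close to what chance gives. Hsph1 was 10.13 on wild type villus array 1, with the others at 9.501 to 9.557. It was 10.37 on Ain76A villus array 3, with the others at 8.964 to 9.061. Dnajb1 was 12.39 on NWD1 crypt array 2, below the others at 12.98 to 13.04. Hspa8 was 13.7 on NWD1 villus array 4, below the others at 14.17 to 14.24. Hspd1 was 11.54 on wild type villus array 4, above the others at 10.6 to 10.73. Hspb1 was 7.095 on wild type crypt array 1, below the others at 8.278 to 8.473.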

How the results depend on the processing

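The 72 results for single genes considered here are those called in at least 1 setting. All 1139 alternative values kept the direction, but several settings change only the spread and leave the difference as it was. The kept direction is therefore no sign of robustness in those settings. Of the 1139, 1049 also kept their side of the threshold, 36 passed it where the reported value had not, and 54 no longer passed. The cause of these changes was not tested. Leaving out the filter on level, or using a robust prior without a trend, changed no call. Except for the replicate block, the counts below are given without the share of all genes called in the same setting. They therefore do not show a change particular to the heat shock genes. The number of the 10 genes called in Apc1638N/+ villi, reported as 1, was 0 with the deposited scaling, 0 with blanks at a low floor, 0 with all probe sets fitted, 0 with only the compared groups and 0 after adjustment for the crypt-villus score, and it was 0 to 2 with one array left out. In p21-/- crypts it was 1 after adjustment for the score and 1 without wild type crypt arrays 2 and 4, against 0. In NWD1 crypts it was 1 with only the compared groups and 1 after adjustment for the score, against 0. In NWD2 crypts, reported as 5, it was 3 with blanks at a low floor, 9 with only the compared groups, 2 after adjustment for the score and 2 to 6 with one array left out. In NWD2 villi it was 2 with blanks at a low floor, against 1. In crypts across age and arm, reported as 1, it was 2 with blanks at a low floor, 2 with all probe sets fitted and 3 with only the compared groups. There it was 0 after adjustment for the score from genes of both arms, 0 without wild type crypt arrays 2 and 4, and 0 to 2 with one array left out. In villi across age it was 0 with blanks at a low floor and 0 to 1 with one array left out, against 1. For the villus minus crypt effect of NWD2, reported as 0, it was 1 with the deposited scaling, 2 with only the compared groups and 0 to 2 with one array left out. With one array left out the tissue comparison gave 5 to 7 genes in Apc1638N/+ (reported as 6), 6 to 8 in p21-/- (8) and 5 to 6 in NWD2 mice (6). The replicate number as a replicate block gave 2 genes in Apc1638N/+ villi (3 of all 7152 genes) and 2 in crypts across age (1094 of 7634). It gave 3 for the villus minus crypt effect of NWD2 (366 of 6948). The block changed 8 of 70 single results, all gained. Of these, 4 were in Ain76A and NWD2 mice, whose crypts and villi met the correlation rule for pairing. The others were Hspa1b in Apc1638N/+ crypts against villi (adjusted p = 0.037), Hspa1b in Apc1638N/+ villi (0.0373), Hspa1a in NWD2 crypts (0.0352) and Hspa1a in crypts across age (0.0326), where the arrays share only a number. Protein lengths and identities were not run. Blank cells, whose meaning the sources used here do not give, limit Dnaja4, Hspb1 and Hspa1a most.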
